A study of Mus musculus with 38 samples.

Results

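The chromatin of 4 genes was followed while SOX9, a transcription factor of hair follicle stem cells, was switched on in epidermal stem cells (EpdSCs). They are *Runx1*, *Runx2*, *Runx3* and *Cbfb*, of 21911 protein-coding genes in the annotation. Each gene body with 50 kb on both sides was taken as a window, and every interval of the deposited lists that overlapped a window by at least 1 bp was collected. This gave 975 of the 1006702 intervals in 14 lists. The lists came from MINT-ChIP, in which the chromatin of several samples is barcoded and pooled before immunoprecipitation. They hold H3K27ac peaks and H3K4me1 domains of 5 skin conditions and H3K4me1 domains of 4 culture conditions.

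Skin EpdSCs came from male mice with the genotype K14rtTA; TRE-myc-Sox9, in which the Krt14 promoter drives the doxycycline (DOX) activator in the skin epithelium and DOX induces MYC-tagged SOX9. They were sorted from back skin as negative for CD31, CD45, CD117 and CD140a, high for CD49f, negative for CD34 and high for Ly6A. They were taken before DOX (D0) and after 1, 2, 6 and 12 weeks of DOX (W1, W2, W6 and W12), all D0 mice carrying both transgenes too. DOX was started at P21, except that W12 cells came from newborn skin grafted onto immunocompromised hosts and induced after healing, so that graft and time cannot be told apart. Cultured EpdSCs, labelled male keratinocytes with K14rtTA; TRE-myc-Sox9varients, were transduced and selected, and carried wild-type SOX9 without DOX (WT no DOX) or with DOX (WT DOX), SOX9 lacking its DNA-binding HMG domain with DOX (noHMG) or SOX9 lacking its transactivation domain with DOX (noTA).

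Replicates, and for each of them libraries made with high and with low MNase digestion, had been merged into 1 list per mark and condition. No spread between replicates is therefore known, no difference between lists was tested, and the intervals given on shares and folds cover counting error only. One W2 replicate was sequenced in the same libraries as W12, with barcodes of its own, and the merged lists do not show how completely the reads were separated, which bears on every W2 and W12 value.

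RUNX proteins are transcription factors that bind DNA through the Runt domain. CBFβ, the product of *Cbfb*, does not bind DNA itself but strengthens their binding. RUNX1 is known from blood and hair follicle stem cells, RUNX2 from bone formation, and RUNX3 from lymphocytes and sensory neurons. The RUNX genes are transcribed from a distal promoter, P1, and a proximal promoter, P2. H3K4me1 marks primed and active enhancers, and H3K27ac marks active enhancers and promoters.

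Positions are in GRCm38 (mm10). *Runx1* (ENSMUSG00000022952) lies on the minus strand at chr16:92601466-92826149 and has no other protein-coding gene in its window. *Runx2* (ENSMUSG00000039153) lies on the minus strand at chr17:44495987-44814797, and *Supt3* starts inside it. *Runx3* (ENSMUSG00000070691) lies on the plus strand at chr4:135120652-135177990, with *Clic4* in its window. *Cbfb* (ENSMUSG00000031885) lies on the plus strand at chr8:105170674-105217989, with 5 other protein-coding genes in its window. The marks carry no strand, so that a peak where genes overlap cannot be assigned to one of them.

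Overlapping H3K27ac peaks of the 5 skin lists were chained into loci, numbered along the chromosome. There were 30 in the *Runx1* window, 21 in that of *Runx2*, 4 in that of *Runx3* and 9 in that of *Cbfb*. The sequences shown come from the strongest loci without a peak at D0 and with one at W2 and again at W6 or W12, since these carry the lasting gain of acetylation. Each is 200 bp of the plus strand of GRCm38 centred on the W2 summit. Capitals mark matches, on either strand, to the letters searched, which were TGTGGT for RUNX, ATTGTT for SOX, TGANTCA for AP1 and AGATAA for GATA.
Runx1 locus 1, chr16:92551983-92552182: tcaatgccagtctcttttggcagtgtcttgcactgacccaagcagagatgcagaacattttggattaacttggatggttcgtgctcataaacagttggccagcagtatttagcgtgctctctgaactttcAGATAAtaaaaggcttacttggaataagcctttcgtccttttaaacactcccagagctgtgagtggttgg
Runx1 locus 12, chr16:92631443-92631642: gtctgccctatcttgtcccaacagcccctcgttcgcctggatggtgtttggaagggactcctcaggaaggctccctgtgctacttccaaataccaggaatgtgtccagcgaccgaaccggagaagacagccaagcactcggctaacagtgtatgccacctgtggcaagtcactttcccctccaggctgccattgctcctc
Runx1 locus 25, chr16:92725692-92725891: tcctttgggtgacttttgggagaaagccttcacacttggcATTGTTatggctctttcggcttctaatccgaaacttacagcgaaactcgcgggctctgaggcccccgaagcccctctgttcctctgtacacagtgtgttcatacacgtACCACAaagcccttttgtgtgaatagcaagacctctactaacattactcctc
Runx2 locus 7, chr17:44545372-44545571: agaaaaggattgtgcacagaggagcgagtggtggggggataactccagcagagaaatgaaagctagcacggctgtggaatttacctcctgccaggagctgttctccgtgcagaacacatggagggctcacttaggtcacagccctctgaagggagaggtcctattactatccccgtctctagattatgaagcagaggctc
Cbfb locus 5, chr8:105186064-105186263: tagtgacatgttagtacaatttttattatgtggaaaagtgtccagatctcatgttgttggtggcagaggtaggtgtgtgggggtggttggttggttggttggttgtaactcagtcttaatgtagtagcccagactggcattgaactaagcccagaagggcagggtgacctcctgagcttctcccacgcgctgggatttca
*Runx1* locus 25 held both the SOX and the RUNX letters, *Runx1* locus 1 held the GATA letters, and the other 3 held none, nor did *Runx1* loci 10 and 18, which were chosen by the same rule and are not shown. Over the whole W2 list, 12.4% of such 200 bp windows held the RUNX letters, 7.97% the SOX letters, 5.36% the AP1 letters and 8.21% the GATA letters. In the *Runx1* window, 3 of 17 W2 peaks held the RUNX letters and 1 of 17 held each of the other 3 motifs. A match describes letters and is not a binding site.

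*Runx1* gained more acetylated sequence than the other members. From D0 to W12, H3K27ac peaks covered 6.22, 19.4, 28.9, 24.1 and 18.9 kb of its window. The covered length was 4.64 times that of D0 at W2, whereas the median of this ratio over all genes covered at D0 was 1.04, and it was still 3.04 times at W12, where the median was 0.712. Since the whole lists covered between 23.1 and 32.1 Mb, the *Runx1* window was also set against its list, and held 228 bases per Mb covered at D0 and 901 at W2. The highest fold enrichment in the window was 16.7 at D0 and 18.2 at W2. The window thus gained more and wider peaks, while its strongest peak changed little.

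*Runx2* rose later and less. Its peaks covered 5449, 7737, 9689, 13173 and 10035 bp from D0 to W12. *Runx3* had 1 peak each at D0, W1 and W2 and 2 each at W6 and W12, covering 0.412, 0.334, 0.645, 1.86 and 1.18 kb. For *Cbfb* the covered length was 4.36, 4.39, 6.19, 5.75 and 3.47 kb. *Runx3* carried the least H3K27ac in every list. *Cbfb* was the member that ended below its D0 length, at 0.795 times, while the median of this ratio over genes at W12 was 0.712.

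Covered length at least doubled over D0 in 1 of 4 members at W1, as it did in 6.87% of genes. It was 1 of 4 again at W2, beside 9.96% of genes. At W6 the count was 3 of 4, beside 11.4%, and at W12 it was 2 of 4, beside 5.59%. *Runx1* was among them each time. *Runx2* joined at W6 with 2.42 times its D0 length. *Runx3* reached 4.52 times at W6 and 2.86 times at W12, from a single D0 peak of 412 bp.

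**Figure D1:**
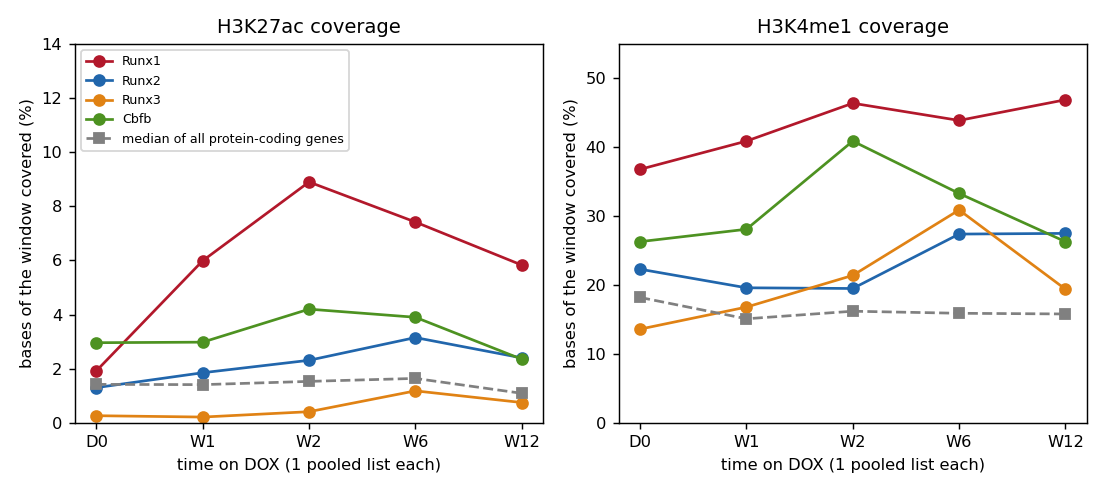
Share of each window covered by H3K27ac peaks (left) and H3K4me1 domains (right), in percent, over the 5 skin lists, with 1 pooled list per point and the median of all protein-coding genes as a dashed line. For H3K27ac, *Runx1* goes from 1.92% at D0 to 8.9% at W2, while the median over genes goes from 1.42% to 1.53%.

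A peak was called gained when D0 had no overlapping peak, and a D0 peak was called lost when the later list had none. In the *Runx1* window, the gained peaks numbered 13 of 18, 13 of 17, 20 of 23 and 19 of 22 in the 4 later lists. The 4 windows together gained 19 of 33 peaks at W1, against 41.3% of the whole list. Gains were 20 of 33 at W2 (whole list 40.1%), then 33 of 45 at W6 (39.8%), and finally 34 of 48 at W12 (56.2%). The exact 95% Clopper-Pearson interval of the *Runx1* share lay above the share of the whole list in each later list, from 50.1% to 93.2% in the case of W2. For *Runx2*, with 4 of 10, 5 of 9, 10 of 14 and 10 of 17 peaks gained, the interval lay above the whole list only at W6. Such intervals treat peaks as independent, although neighbouring peaks can be pieces of 1 stretch. *Runx1* locus 11, for instance, held 4 peaks at W1 and 6 at W6. With peaks less than 1000 bp apart joined, 15 of 28 peaks (53.6%) in the 4 windows were gained at W2.

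Losses were not more frequent than elsewhere. Of the 20 D0 peaks in the 4 windows, 7 were lost at W1, against 37.4% of the whole D0 list. At W2, 4 were lost (whole list 38.6%), followed by 6 at W6 (37.8%) and 8 at W12 (53.7%). Each of these 4 shares had an interval that held the whole-list value. *Runx1* lost 1 of its 6 D0 peaks by W2, *Runx2* lost 2 of 8 and *Cbfb* lost 1 of 5.

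**Figure D2:**
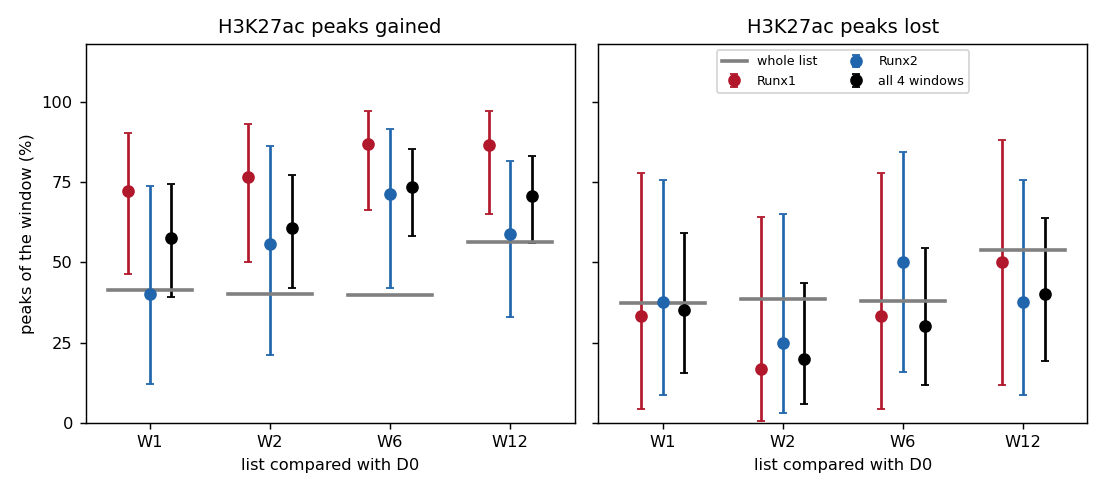
Share of H3K27ac peaks in the window, in percent, that were gained (left, of the later list) or lost (right, of the D0 list) against D0, for *Runx1*, *Runx2* and all 4 windows, with exact 95% Clopper-Pearson intervals as bars and the whole list as grey lines. The *Runx1* gained shares run from 72.2% to 87.0%, above the grey line at each time.

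A missing peak means a signal below the calling limit. Among D0 peaks whose fold fell on a whole summit pileup, the smallest fold was 3.33, a pileup of 4 fragments. The background pileup, which follows depth, was 0.501 at D0 and 0.299, 0.425, 0.677 and 0.411 in the later lists. The smallest such fold differed too, with 3.08 at W1, a pileup of 3 fragments, and values between 3.51 and 3.58 from W2 on. Peaks whose fold fell off whole pileups could lie lower, as in the *Runx2* window with 2.99 at W1 and 3.11 at W12. The part of depth and of the calling limit in the gains was not tested.

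The proximal promoter of *Runx1* was acetylated in every list. The locus over its proximal start sites, at 92697328 and 92696125, had folds of 16.7, 13.9, 18.2, 17.9 and 11.3 from D0 to W12. The W12 value came from a peak more than 1000 bp from both sites, and the highest W12 fold within 1000 bp was 9.92. Its peaks covered 3422, 4224, 6114, 6084 and 4860 bp. The counting interval of the fold was 10.9 to 24.5 at D0 and 12.1 to 26.6 at W2, so that the peak was wider at W2 but not higher beyond counting error.

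The distal start site of *Runx1*, at 92826149 and 129 kb from the nearer proximal one, had no H3K27ac peak within 1000 bp until W12, when 1 peak of 776 bp had a fold of 4.71. The site also lay in an H3K4me1 domain at W12 alone. The gap between the H3K4me1 domains on either side of it was 33.6, 32.8, 9.8 and 2.2 kb in the lists before. H3K27ac near P1 and H3K4me1 over it were thus called in the last list only, which came from grafted skin.

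Around the proximal start sites H3K4me1 drew back while the acetylated stretch widened. The start site at 92697328 already lay in a gap of 0.8 kb between H3K4me1 domains at D0. The one at 92696125 lay inside a domain at D0 and in the same gap as the other afterwards. That gap measured 2.6, 3.4, 3.2 and 2.8 kb in the 4 later lists.

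Within the gene, 2 further loci were called in all 5 lists. Locus 11, an intronic stretch at chr16:92619204-92630837, had folds of 5.33, 10.8, 15.4, 11.3 and 11.3 from D0 to W12, and its peaks covered 735 bp at D0 and 10619 bp at W2. Locus 8, at chr16:92608728-92611569, had folds of 5.33, 6.16, 11.9, 6.56 and 6.38. Both were highest at W2. At locus 11 the counting interval was 2.54 to 10.3 at D0 and 9.82 to 23.2 at W2, which overlapped at their ends only. These intervals belong to different summits, at 92627088 for D0 and 92621255 for W2, so that they do not compare the same site.

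Of the 30 *Runx1* loci, 25 had no peak at D0 (83.3%, against 58.4% of all 65311 loci). The loci that were then called at W2 and again at W6 or W12 numbered 8 (26.7%, against 7.43%). The strongest of them at W2, locus 1 at chr16:92549666-92553554, lies at the 3′ edge of the window over the start of the non-coding gene *Gm49722*. It had no peak at D0 and folds of 10.8, 16.1, 8.35 and 4.25 in the later lists. Its counting interval was 10.4 to 24.1 at W2 and 1.86 to 8.98 at W12, which did not overlap. Folds at the basal epidermal marker genes *Krt5*, *Krt14*, *Trp63* and *Col17a1* were lower at W12 too, with 26.7 at W2 and 16.3 at W12 for *Col17a1*. Those at *Itga6* (9.12 and 9.92) and *Itgb4* (11.2 and 11.3) were not.

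The next strongest lay in introns. Locus 10, at chr16:92614408-92616873, where the non-coding *Gm26626* runs too, had folds of 3.85, 9.12, 6.56 and 6.38 from W1 on. Locus 12, at chr16:92631075-92632698, had 6.93, 6.32, 13.7 and 4.96. Locus 18, at chr16:92674140-92675441, had 6.16, 5.61 and 5.37 and no peak at W12. All 3 were called by W1 and overlapped H3K4me1 domains in all 5 lists.

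Locus 25, whose sequence holds the SOX and RUNX letters, differed from these. It lies in an intron at chr16:92724887-92726316, between P1 and the proximal start sites, 101 kb from P1. It had no H3K27ac peak at D0 or W1 and folds of 6.28, 5.21 and 6.38 from W2 on. An H3K4me1 domain over it was missing at D0 but already called at W1, with 2800 bp, and then covered 4200, 4000 and 4400 bp. H3K4me1 was thus called there 1 list before H3K27ac. In culture a domain of fold 3.74 was called there with WT DOX and in none of the other 3 lists.

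Locus 27, in the same part of *Runx1* at chr16:92737938-92739333, had folds of 4.81, 8.5 and 10.6 from W2 on, and its H3K4me1 was missing at D0 too. In culture it overlapped a domain with WT DOX, but that domain reached over from a neighbouring domain that the other 3 culture lists also held. Locus 17, at chr16:92673739-92674009, was the single *Runx1* locus acetylated at D0 alone, with a fold of 4.66.

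**Figure D3:**
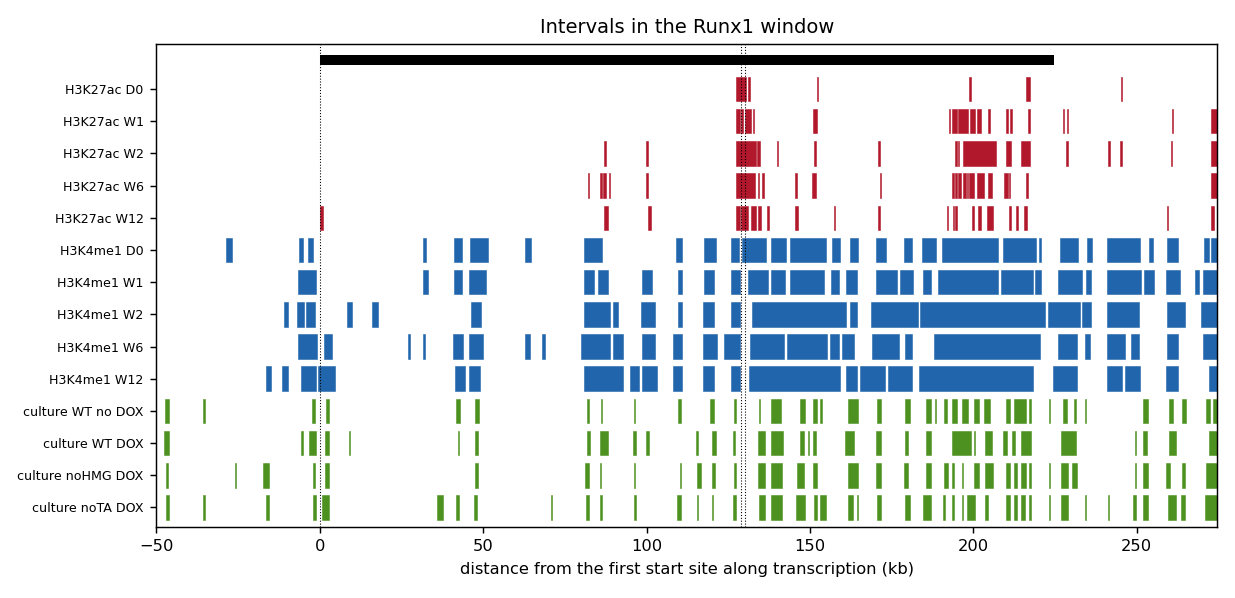
Intervals of the 14 lists in the *Runx1* window, by distance in kb from P1 along transcription, with H3K27ac in red, H3K4me1 in blue, culture H3K4me1 in green, the gene as a black bar and start sites as dotted lines. The widest H3K27ac peak at D0 sits at the proximal start sites, 129 to 130 kb from P1, and in the stretch 194 to 216 kb from P1, where D0 has 2 peaks, each later list has more.

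*Runx1* also had the highest H3K4me1 share of the 4 windows in every list. Domains covered 36.8% of it at D0 and 40.9%, 46.4%, 43.9% and 46.9% later, while the median over genes was 18.2% at D0 and 15.8% at W12. The widest domain was 17.2 kb at D0 and 38.2 kb at W2. The stretch of that W2 domain already held 4 domains covering 32400 bp at D0, so that neighbouring domains had joined. In all, 86.9 kb lay in domains of all 5 lists and 13.6 kb in domains of all lists but D0. Most of the H3K4me1 in the window was thus there before SOX9 was induced.

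H3K4me1 followed a different course at each of the other members. It covered 22.3%, 19.6%, 19.5%, 27.4% and 27.5% of the *Runx2* window from D0 to W12. Over *Runx3* it was 13.6%, 16.8%, 21.4%, 30.9% and 19.4%, and over *Cbfb* 26.3%, 28.1%, 40.9%, 33.3% and 26.3%. *Runx2* rose after W2, *Runx3* was highest at W6, and *Cbfb* was highest at W2 and back at its D0 value at W12. The depth of the H3K4me1 lists is unknown, so that a missing domain was only not detectable at that list's depth.

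Gains of H3K4me1 domains were close to the whole lists except at W6. The 4 windows gained 5 of 69 domains at W1 (whole list 5.96%) and 14 of 69 at W2 (20.0%). They gained 25 of 90 at W6 (17.1%), with an interval of 18.9% to 38.2%, and 16 of 72 at W12 (15.6%). Of the W6 gains, 12 were in the *Runx2* window.

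Losses of H3K4me1 domains were fewer than elsewhere up to W6. Of 76 D0 domains, 12 were lost at W1 (whole list 27.8%), 16 at W2 (32.4%) and 6 at W6 (26.6%), with intervals below the whole-list share each time. By W12, 17 were lost (31.2%). *Runx2* accounted for 8 of the 12 domains lost at W1 and 10 of the 16 lost at W2. These were 26.7% and 33.3% of its own 30 D0 domains, close to the whole list.

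The widest H3K4me1 stretches absent at D0, called at W2 and seen again were few. Some were already called at W1. Widths are of stretches joined over the skin lists, so that a single list can hold less. For *Runx1* they were the stretch over locus 25 and a 2 kb stretch 10.7 kb upstream of P1, called at W2 and W12. For *Runx2* it was a 1.8 kb stretch over P1, called at W2 and W6. *Runx3* had a stretch of 2.8 kb at its 3′ end and one of 3.4 kb downstream of the gene, each with 1000 bp at W2. The downstream one was already called at W1. *Cbfb* had a stretch of 7.8 kb upstream of its start, called from W1 to W12 with 1000, 5400, 5600 and 4200 bp. It also had smaller stretches in *Ces4a* and in an intron of its own. Domains called at D0 alone were 1 in the *Runx1* window, of 1.8 kb and 27.8 kb upstream of P1, and 3 in that of *Runx2*, of 3.4 kb in an intron and of 2.2 and 0.6 kb in *Supt3*.

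*Runx2* showed its acetylation at P2 and in introns. Its proximal promoter locus, which also holds the start of the antisense gene *Runx2os1*, had folds of 4, 6.16, 6.32, 9.54 and 8.5 from D0 to W12, and a second peak beside it was called at W6 alone with 5.37. Its P1 had no H3K27ac peak within 1000 bp in any list. Locus 7, an intronic locus at chr17:44544371-44546282, was the single *Runx2* locus with a lasting gain, with folds of 5.39, 5.61, 11.3 and 7.08 from W1 on, and in culture a WT DOX domain of 4549 bp reached over it from a neighbouring domain that all 4 culture lists held.

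Further *Runx2* loci were called late. Loci 1 and 2, near the 3′ end of the gene at chr17:44499629-44500296 and chr17:44500600-44501462, were first called at W6, with folds of 6.56 and 7.03, and again at W12, with 9.1 and 6.38. Both overlapped H3K4me1 in all 5 lists. The highest fold of the window at D0, 23.3, belonged to locus 20 at the start of *Supt3*, where it was 4.62, 9.82, 11.3 and 5.67 later. Locus 21, in an intron, was called at D0 alone, with a fold of 4.

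*Runx3* had no H3K27ac peak within 1000 bp of either start site in any list, whereas between 35.9% and 47.8% of all protein-coding start sites had one. Its P2 lay in an H3K4me1 domain in all 5 lists, and its P1 had none within 1000 bp. Its main acetylated locus lies 40.3 kb upstream of P1, at chr4:135079832-135080886, and had folds of 3.33 at D0, 5.61 at W2, 8.95 at W6 and 7.79 at W12 but no peak at W1. A locus downstream of the gene was called at W6, with a fold of 5.37. None of 6 immune marker genes, which include *Ptprc*, the gene of the pan-leukocyte antigen CD45, and *Cd3e*, a T cell receptor component, had an H3K27ac peak within 1000 bp of a start site in any list.

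*Cbfb* kept its promoter peak, with folds of 12, 5.39, 7.72, 10.7 and 7.08 from D0 to W12. An intronic locus at chr8:105186053-105187520 was called at W2, with a fold of 7.02, and at W12, with 7.79, but not in the other 3 lists. A second intronic locus was called at W1 (3.85) and W6 (5.37). The other recurrent peaks of the window sit at the starts of *D230025D16Rik*, of *B3gnt9* and of *Fbxl8* and *Tradd*.

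**Figure D4:**
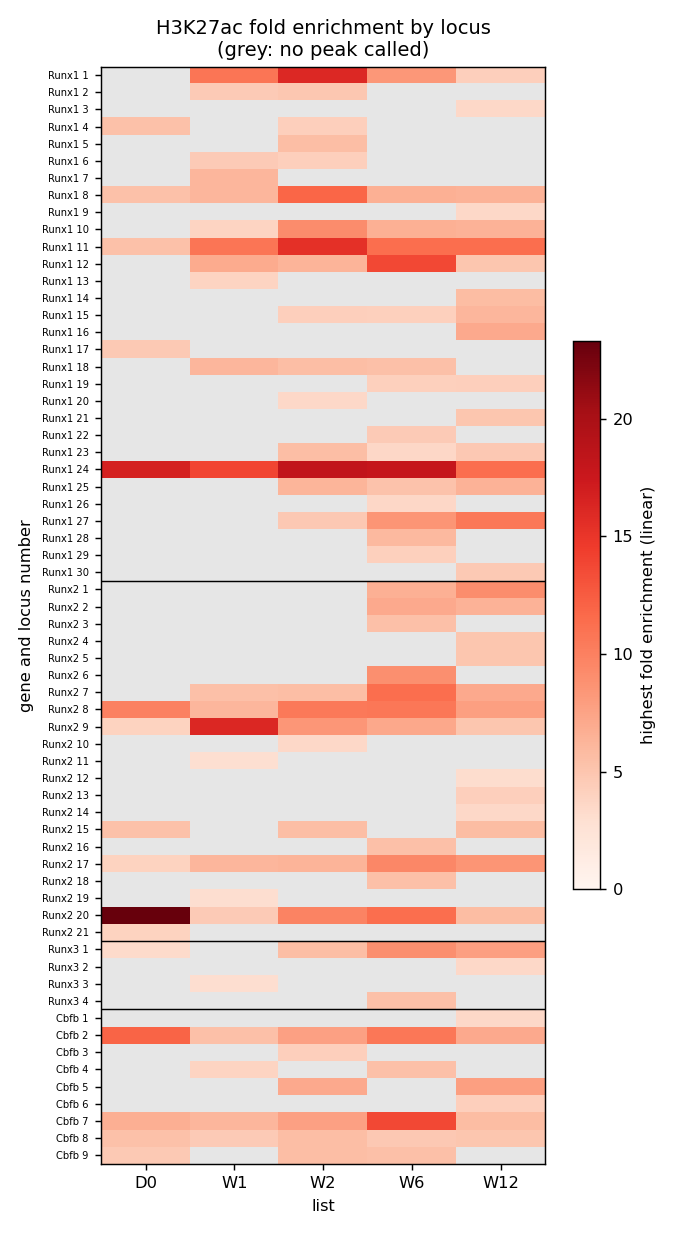
Highest H3K27ac fold enrichment (linear) of the 64 loci in the 4 windows, with rows by gene and locus number, columns by skin list, and grey where no peak was called. In the *Runx1* rows, 25 of 30 are grey at D0.

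**Figure D5:**
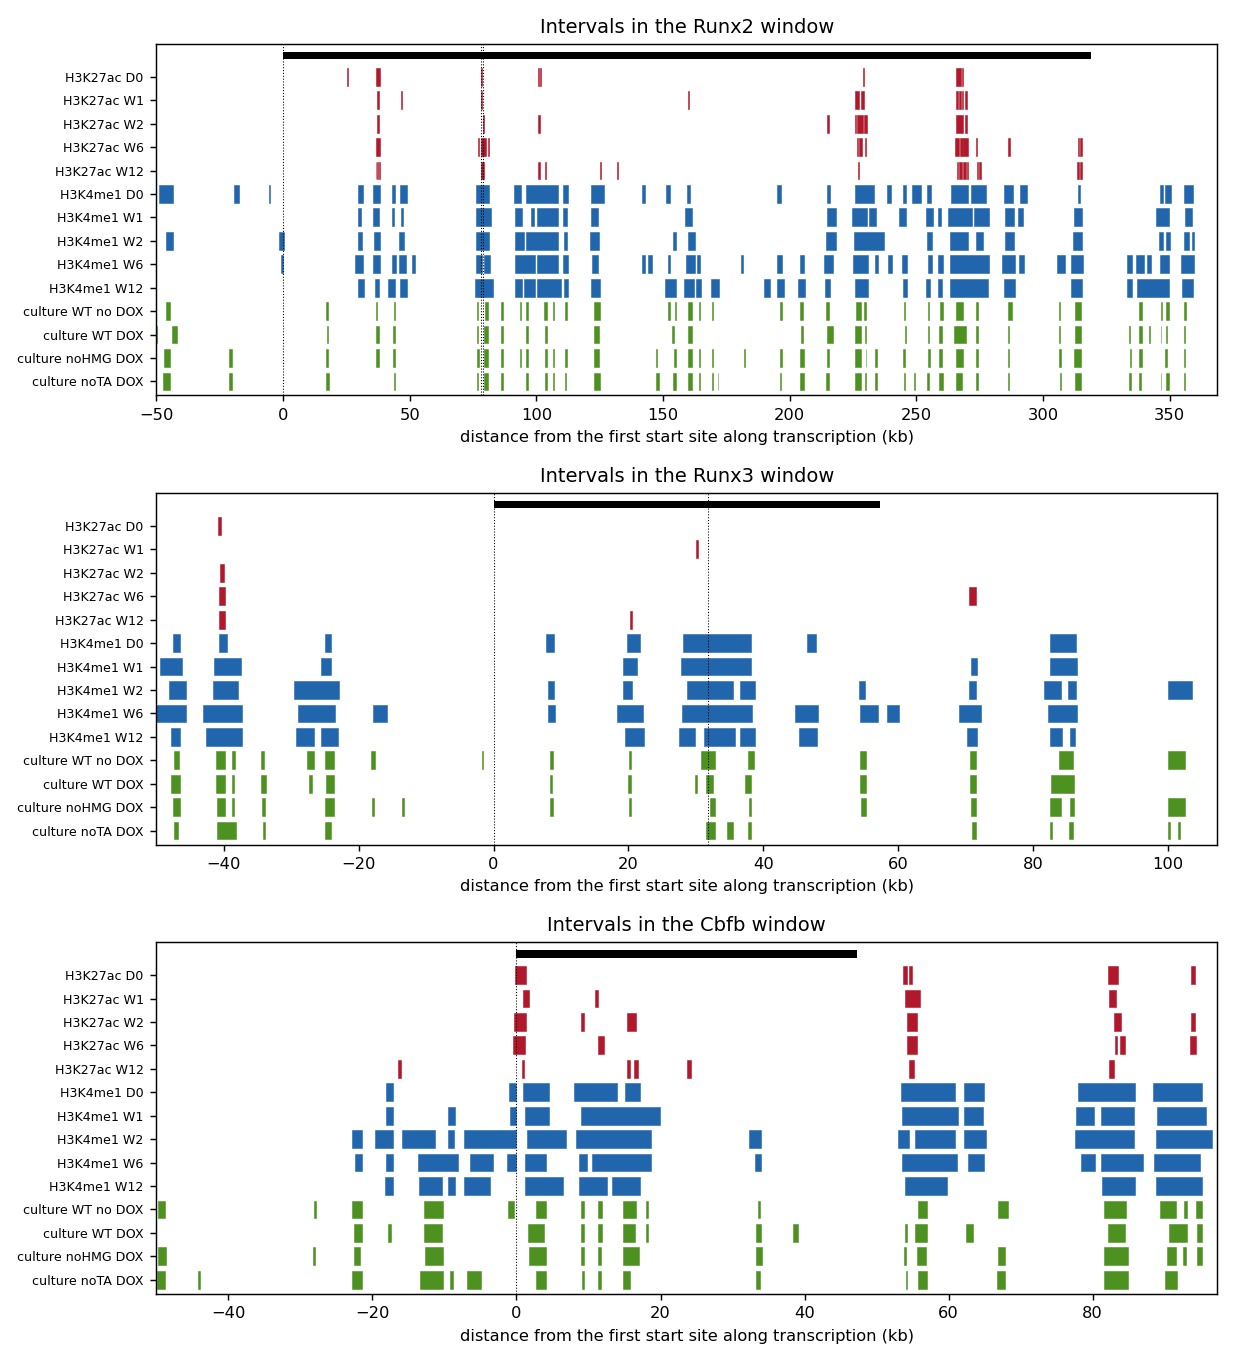
Intervals of the 14 lists in the *Runx2*, *Runx3* and *Cbfb* windows, by distance in kb from the first start site along transcription, with H3K27ac in red, H3K4me1 in blue, culture H3K4me1 in green, the gene as a black bar and start sites as dotted lines. *Runx3* shows 1 or 2 H3K27ac peaks per list, none of them within 1000 bp of a start site.

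The order of the marks at the members was that of most regions. All 19 peaks first called at W1 in the 4 windows lay in an H3K4me1 domain of D0, beside 91.0% of the 13445 such peaks in the whole list. Of the 10 peaks first called at W2, 8 lay in a D0 domain (whole list 85.9%) and all 10 in a W1 domain (90.3%). The remaining 2 were loci 25 and 27 of *Runx1*. Of the 14 first called at W12, 11 lay in a W12 domain, beside 47.5% of the peaks first called in that list, which stands apart from the 94.1% at W2 and from W6, where 5264 of 5542 such peaks did. All 6 of the *Runx1* peaks first called at W12 lay in such a domain and neither of the *Cbfb* peaks did.

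In culture, H3K4me1 domains at the members changed no more often than elsewhere. All lists with DOX were set against WT without DOX, and the mutants without DOX were not analysed here, so that the form of SOX9 and DOX cannot be told apart for noHMG and noTA. With WT DOX, 16 of 95 domains were gained (whole list 29.1%) and 24 of the 107 domains without DOX were lost (25.1%). With noHMG, 11 of 108 were gained (19.3%) and 11 of 107 lost (15.6%). With noTA, 18 of 110 were gained (25.8%) and 16 of 107 lost (17.5%). The *Runx1* window was covered for 46.6 kb without DOX, 53.1 kb with WT DOX, 48.3 kb with noHMG and 55.8 kb with noTA. The *Runx3* window was covered for 16.0, 13.6, 12.8 and 9.31 kb in the same order, so that *Runx3* was lowest with noTA.

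The strongest culture domains gained with WT DOX, taken from chained stretches with no domain without DOX, had folds between 2.41 and 4.59. Part of them were shared with the mutants. After the domain at locus 25, which ranked in the top 16.4% of its list, the strongest for *Runx1* had folds of 3.73 at chr16:92576269-92577291 and 3.45 at chr16:92709541-92710984, and both were also called with noHMG and noTA. For *Runx2* they had folds of 4.59 and 4.53, both in *Supt3* and with WT DOX alone, and 2.41, called with all 3 forms of SOX9. A *Runx2* domain of fold 2.88 also overlapped none without DOX, but its chained stretch held one. *Runx3* gained 1 domain, of fold 2.58, with WT DOX alone, where the skin list of W1 had its single peak. Both were among the weakest calls. Counted from the strongest, the culture domain ranked at 99.7% of its list and the skin peak, of fold 3.08, at 96.9%. *Cbfb* gained domains of 3.73 and 2.77 with WT DOX alone and one of 3.04 with all 3 forms.

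Culture domains were chained into loci in the same way, and 4 of 131 in the 4 windows were called without DOX alone. That was 3.05%, against 3.96% of all culture loci. Of the 12 strongest domains lost with WT DOX, 3 for each member and from stretches with no WT DOX domain, 2 were missing with all 3 forms of SOX9. One of them, of fold 4.17 without DOX, lies 1.64 kb upstream of the *Runx3* P1, and the other, of fold 3.48, lies 0.82 kb upstream of the *Cbfb* start. The strongest for *Runx1*, at chr16:92561234-92562752, had a fold of 4.06 without DOX, 4.51 with noHMG and 3.48 with noTA. The strongest for *Runx2* had 3.93 without DOX and 3.74 with noHMG and was missing with noTA. The strongest for *Cbfb*, within *D230025D16Rik*, had 3.8 without DOX and was kept with both mutants.

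Genes for proteins that act with RUNX factors showed no common gain. Of 20 such genes, 18 were covered at D0, and 1 of these had at least doubled its H3K27ac length by W2, beside 9.96% of all genes. It was the co-repressor *Tle1*, with 0.951 kb at D0 and 7.73 kb at W2. The median ratio over the 18 genes was 1.04, the same as over all genes. At W6 the co-repressors *Tle2* (2.84 times) and *Tle3* (2.13 times) had doubled too. That made 3 of 18, beside 11.4% of all genes. Of the 18, 4 had at least halved, but the share of all genes that did so was not counted. The partner genes *Ets1* and *Ets2* went the other way, from 10.7 to 3.08 kb and from 36.1 to 18.2 kb between D0 and W2, and *Ets1* was at 12.3 kb at W12. The co-activator gene *Ep300* had 2.72 kb at D0 and 4.32 kb at W2, and *Crebbp* had 2.71 and 2.81 kb. Over the list, 40 of 113 W2 peaks were gained (35.4%) and 51 of 131 D0 peaks were lost by W2 (38.9%), beside 40.1% and 38.6% of the whole lists.

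Genes with the most similar H3K27ac course were sought by the share of each list's covered bases in the window, scaled to sum to 100% over the 5 lists. *Runx1*, with 6.7% at D0 and 26.5% at W2, was most like *Tnfsf8*, *Borcs5* and *Mtus1* among 15932 genes, with summed absolute differences of 0.0287, 0.038 and 0.0394. *Runx2* was most like *Rbm41* and *Nup62cl*, whose windows share the same peaks, and *Mab21l3*. *Runx3*, with 38.5% at W6, had less similar genes, *Ang2* at 0.0924 and *Pink1* and *Cda*, which share peaks, at 0.104. *Cbfb* was most like *4931414P19Rik* and the histone genes *Hist1h2bh* and *Hist1h3f*, which share peaks.

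The sorted cells carried epidermal marks. All 6 basal epidermal markers had an H3K27ac peak within 1000 bp of a start site in every list, with folds from 16.7 to 66.6 at D0 and from 8.5 to 16.3 at W12. None of 4 fibroblast markers had one. Of 4 hair follicle markers, *Sox9* had one in every list, and *Lhx2* and *Tcf7l1* had one at W2. Of 3 endothelial markers, *Tek* had one at W1 (3.85) and *Pecam1* at W6 (4.77) and W12 (14.9), and of 3 mast cell or melanocyte markers, *Dct* had one at W1 (3.85) and *Mitf* at W6 (5.96) and W12 (4.96). Their part in the late values of *Runx1*, *Runx2* and *Runx3* was not tested.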

How the data were processed

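MINT-ChIP libraries of H3K4me1, H3K27ac and total H3 form 38 samples in 16 groups, each group with high and low MNase libraries, and total H3 and 14 barcode files were not used. The authors aligned reads to GRCm38/mm10 with Bowtie2 (version 2.2.9 in the submitters' processing notes), removed duplicates with Picard, merged replicates, and called H3K27ac with MACS2 (2.1.1) and H3K4me1 with epic2, with settings not given in the sources used here. The name of the W12 H3K27ac list alone carries a Q05 tag, although the lowest score was 13 in all 5 H3K27ac lists. The culture lists have the layout of MACS2 broad peaks, and how they were called is unclear. The deposited skin H3K4me1 lists give a p-value per domain. The other deposited lists give a caller's score, a fold (ratio of signal to background) and −log10 of the p-value, and 9 further columns, of q-values, were not used. Alternatives that rank intervals used the p-value or the score.

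Members, gene lists and rules were chosen with earlier results of these data known. Start sites came from GENCODE M21, joined below 500 bp, and sequences from the RefSeq copy of GRCm38.p6. Folds of H3K27ac fell on whole summit pileups for 82.3% to 95.9% of peaks, and exact Poisson intervals of these pileups gave the fold intervals. Named H3K27ac loci were those at start sites, the strongest at W2 of those absent at D0 and called at W2 and at W6 or W12 (5 for *Runx1*, 3 for other members), and the 3 strongest called at D0 alone. Named H3K4me1 domains followed the same rule by width, and named culture domains were the 3 strongest gained and lost per member. Loci 8, 11 and 27 of *Runx1*, loci 1, 2 and 20 of *Runx2*, the unnumbered *Runx3* loci, the other *Cbfb* loci and the genes named from the list of RUNX co-regulators were chosen after their values were seen. Likeness was computed for genes with at least 2000 covered bp over the 5 lists. The interval functions, in Python with pandas and SciPy, were tested on simulated data.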

Additional observations from a re-analysis of the deposited data

How the results depend on the processing

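Of 54 values recomputed under other settings, 40 stayed within 1.5 times the reported one, or its spread, 14 moved further and 0 reversed. With the intervals above the median rank of their list alone, H3K27ac gains at W2 in the 4 windows fell to 7 from 20 (*Runx1* 4, *Runx2* 2, *Cbfb* 1), H3K27ac losses to 1, H3K4me1 losses to 10 from 16 and culture losses with WT DOX to 10 from 24, while the *Runx1* H3K27ac ratio rose to 7.5. This setting holds fewer intervals by construction. Requiring 50% overlap gave 7 H3K27ac losses in place of 4, and lists cut to equal length gave 7 H3K4me1 losses. Smaller windows held fewer intervals. The gene body alone gave 8 H3K4me1 gains in place of 14, 7 culture gains in place of 16 and 13 culture losses, and a flank of 10 kb gave 9 culture gains. The *Runx1* H3K27ac ratio of 4.64 at W2 was at least 4.24 under every setting tried, and its H3K4me1 ratio of 1.26 was at most 1.48. No paired analysis was possible because each list pools the replicates of its condition, and for the same reason no replicate could be left out.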
